A study of Mus musculus with 48 samples.

Results

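The genes described here encode 10 plasma proteins that the liver secretes and whose blood levels change in inflammation, the acute phase proteins. They are Saa1 and Saa2 (serum amyloid A), Orm1 and Orm2 (orosomucoid), Hp (haptoglobin), Hpx (hemopexin), Apcs (serum amyloid P component), Lcn2 (lipocalin 2), Itih4 (inter-alpha-trypsin inhibitor heavy chain 4) and A2m (alpha-2-macroglobulin). Members were taken by gene symbol and not by a rule on their values, but with earlier results of these data known. All 10 are among the 11275 genes listed for frozen liver (FROZ), and 8 of the 10 are among the 6673 genes listed for formalin-fixed paraffin-embedded liver (FFPE), where Lcn2 and A2m were not analysed. The tables hold 48 TempO-Seq libraries of 24 male B6C3F1 mice, 4 weeks of age, that drank water with dichloroacetic acid (DCA) at 0, 1.0, 2.0 or 3.5 g/L for 6 days. Estimated intakes were 0 (vehicle control), 198, 313 and 427 mg/kg-d, with 6 mice per dose, and each liver gave 1 FROZ and 1 FFPE library. The mice carried no engineered allele and no second agent. FROZ and FFPE pieces of a liver were taken from partly different lobes, so that preservation and lobe cannot be told apart. In TempO-Seq, paired probes that meet on a transcript are ligated, and the ligated products are amplified and counted, and abundant probes, among them that of Hp, were attenuated in the assay.

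In the acute phase response, interleukin-1 and interleukin-6 reach hepatocytes through their receptors, and the transcription factors NF-kB, STAT3 and C/EBP raise the transcription of genes for plasma proteins. Serum amyloid A, the orosomucoids and serum amyloid P component are among the proteins that rise most in the mouse, whereas albumin, transferrin and other negative acute phase proteins fall. Haptoglobin and hemopexin clear free haemoglobin and haem, lipocalin 2 withholds iron from bacteria, and the inter-alpha-trypsin inhibitor chains and alpha-2-macroglobulin act on the extracellular matrix and on proteases.

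On GRCm38 (the mm10 build used by the authors), Saa1 (chromosome 7, 46740497 to 46742980, minus strand) and Saa2 (chromosome 7, 46751790 to 46754313, plus strand) are head-to-head neighbours with 8809 bases between the annotated genes. Orm1 (chromosome 4, 63344560 to 63348163) and Orm2 (chromosome 4, 63362449 to 63365878) lie on the plus strand with 14285 bases between them. The other members are Hp (chromosome 8, 109575128 to 109579172, minus strand), Hpx (chromosome 7, 105591613 to 105600137, minus strand), Apcs (chromosome 1, 172893961 to 172895041, minus strand), Lcn2 (chromosome 2, 32384633 to 32388252, minus strand), Itih4 (chromosome 14, 30886476 to 30902353, plus strand) and A2m (chromosome 6, 121635376 to 121679227, plus strand). Paralogs can share reads where their probed sequence is alike. Of the distinct 50-base windows in annotated transcripts, 31.5% of those of Saa1 also occur in another gene, and the shares were 29.97% for Saa2, 20.4% for Orm1 and 22.7% for Orm2. The share was 0.185% for Itih4 and 0% for the other members, and which windows the probes cover was not checked, so that the split of reads within each pair is uncertain.

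Promoters are shown for Saa1, Saa2, Orm2 and Lcn2, the members that varied most between animals of a dose, and for Apcs, which fell at the highest dose with a small spread. Each runs 5′ to 3′ on the gene's strand from 250 bases before to 50 bases after the RefSeq start (GRCm38.p6). Capitals mark matches on either strand to a C/EBP motif (TTNNGNAA) or a STAT motif (TTCNNNGAA).
Saa1 (chr7:46742931-46743230, minus strand): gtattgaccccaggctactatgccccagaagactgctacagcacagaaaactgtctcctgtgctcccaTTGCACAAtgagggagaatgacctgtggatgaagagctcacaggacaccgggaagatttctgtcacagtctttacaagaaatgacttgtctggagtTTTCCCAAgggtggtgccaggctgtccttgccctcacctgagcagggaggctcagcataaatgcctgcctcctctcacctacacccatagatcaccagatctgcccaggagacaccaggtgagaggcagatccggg
Saa2 (chr7:46751583-46751882, plus strand): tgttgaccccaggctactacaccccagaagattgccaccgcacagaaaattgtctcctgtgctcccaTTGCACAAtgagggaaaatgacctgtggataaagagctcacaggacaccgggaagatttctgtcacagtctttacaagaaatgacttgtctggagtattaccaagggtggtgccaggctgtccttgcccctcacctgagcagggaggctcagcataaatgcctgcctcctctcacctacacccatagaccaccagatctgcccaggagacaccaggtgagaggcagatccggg
Orm2 (chr4:63362199-63362498, plus strand): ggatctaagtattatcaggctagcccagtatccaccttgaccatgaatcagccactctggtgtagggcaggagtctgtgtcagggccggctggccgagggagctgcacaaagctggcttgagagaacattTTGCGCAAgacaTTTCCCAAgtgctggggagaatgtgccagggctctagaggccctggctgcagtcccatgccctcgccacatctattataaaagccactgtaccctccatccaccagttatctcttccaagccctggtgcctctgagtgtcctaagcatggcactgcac
Lcn2 (chr2:32387690-32387989, minus strand): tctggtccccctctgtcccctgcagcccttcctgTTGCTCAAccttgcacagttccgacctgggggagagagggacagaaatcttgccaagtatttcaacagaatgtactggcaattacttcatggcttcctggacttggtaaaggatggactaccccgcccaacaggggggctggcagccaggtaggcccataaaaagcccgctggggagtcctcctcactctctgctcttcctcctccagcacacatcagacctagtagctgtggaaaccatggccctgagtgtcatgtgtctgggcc
Apcs (chr1:172895005-172895304, minus strand): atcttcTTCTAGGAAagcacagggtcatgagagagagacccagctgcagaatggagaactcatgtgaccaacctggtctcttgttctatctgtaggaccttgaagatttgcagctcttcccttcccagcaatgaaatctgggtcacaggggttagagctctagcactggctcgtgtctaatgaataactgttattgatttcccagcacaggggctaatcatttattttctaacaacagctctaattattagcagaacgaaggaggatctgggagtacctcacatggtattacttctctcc
The table of promoters holds 7 of the members, and Orm1, Hp and A2m were not matched. Saa1 and Saa2 shared 287 of the 300 bases in a global alignment, 95.7%. One of the matches of Saa1, TTTCCCAA at position -86 from the start, had no counterpart in Saa2, whereas TTGCACAA stood at -182 in Saa1 and at -183 in Saa2. Orm2 held TTGCGCAA at -120 and TTTCCCAA at -108, Lcn2 held TTGCTCAA at -216, and Hpx, not printed, held TTGCTGAA at -200 and TTTCTCAA at -73. The STAT motif was found in Apcs (TTCTAGGAA at -244) and Itih4 (TTCCGAGAA at -51). No matches overlapped, and none of the 7 windows held the NF-kB consensus. Of all 32851 promoters of the same length, 40.7% held the C/EBP motif, 8.30% the STAT motif and 4.51% the NF-kB consensus, and a match is a description of letters, not of binding.

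FROZ libraries held 6.69 to 9.84 M reads on listed genes and FFPE libraries 1.83 to 6.01 M, recovered from the step between low values. In FFPE these were 4.53 to 5.82 M in controls, 1.83 to 5.59 M at 198, 3.09 to 4.80 M at 313 and 4.235 to 6.01 M at 427 mg/kg-d. FFPE depth thus ran partly with dose, and its part in the FFPE differences was not tested. Values are log2(CPM + 1), where CPM is a gene's count scaled to the total of the genes in that table. Levels were therefore compared between doses within a table, and not between genes, whose probes differ in yield, or between tables. The median log2 difference from controls over all genes was 0.07, 0.11 and 0.10 in FROZ and -0.19, -0.12 and 0.18 in FFPE at 198, 313 and 427 mg/kg-d. For the step from 313 to 427 mg/kg-d this median was 0.005 in FROZ and 0.29 in FFPE. A gene was called a DEG at a false discovery rate (FDR, Benjamini-Hochberg over all genes of the table) below 0.05 and a fold change above 2. Animal 8 (control) and animals 74 and 75 (313 mg/kg-d) stood apart from their dose groups in several members, in FROZ and FFPE alike. For some differences, leaving out all 3 ended a call or moved the value by over 1.5 times. The value without them is then given for printed steps of dose and printed differences from controls at 313 and 427 mg/kg-d. This choice was made after the values were seen. All 3 were high in several members, so leaving them out also narrows the spread of those members. A lower FDR without them is therefore not added support. The FROZ libraries of animals 8, 74 and 75 held 9.03, 7.38 and 6.69 M reads. All 10 hepatocyte markers were listed in FROZ, with a summed level of 14.70 to 15.36 over the 24 libraries. In bulk liver, fewer cells of a type and less RNA per cell cannot be told apart.

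At 427 mg/kg-d 6 of 10 members in FROZ and 5 of 8 in FFPE were lower than in controls by FDR. Of all genes, 7.33% in FROZ and 0.869% in FFPE were lower by FDR at this dose. Saa2, Orm2, Hp and Lcn2 did not pass in FROZ at this dose. At 313 mg/kg-d Saa2 and Orm2 were higher in FROZ, where the call of Saa2 depended on single animals. In FROZ, 5 of 10 members were DEGs at 427 mg/kg-d (Saa1, Orm1, Apcs, Itih4 and A2m), all lower, where 3.5% of all genes were DEGs in either direction and 1.24% were lower. Hpx fell as well by FDR, by less than 2-fold. All 10 members had a lower mean than the controls at this dose, although that of Orm2 was higher by 0.01 without animals 8, 74 and 75. The median log2 difference of the 10 was -1.40, against 0.10 for all genes. At 313 mg/kg-d, 3 members were DEGs, Saa2 and Orm2 higher and A2m lower, where 2.31% of all genes were DEGs, 1.43% higher and 0.887% lower. Itih4 fell by FDR alone. At 198 mg/kg-d, 0 of 10 members passed by limma, 2 of them (Itih4 and A2m) had an unadjusted p under 0.05, and 0.106% of all genes were DEGs.

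In FFPE, 4 of 8 members were DEGs at 427 mg/kg-d (Saa1, Orm1, Apcs and Itih4), all lower, against 1.81% of all genes in either direction and 0.584% lower. Hpx fell by FDR alone, at a fold change of 1.98. The fold change passed 2 with median-ratio scaling and when animal 3, 7, 98 or 100 was left out. The median log2 difference of the 8 members was -1.497 at this dose, against 0.18 for all genes. At 313 mg/kg-d, 0 of 8 members passed by limma, 4 had an unadjusted p under 0.05 (Saa2, Orm2, Apcs and Itih4), and the background was 0.809% for DEGs and 1.08% by FDR. At 198 mg/kg-d, 0 of 8 passed, 1 had an unadjusted p under 0.05, and the background was 0.0599%.

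**Figure D1:**
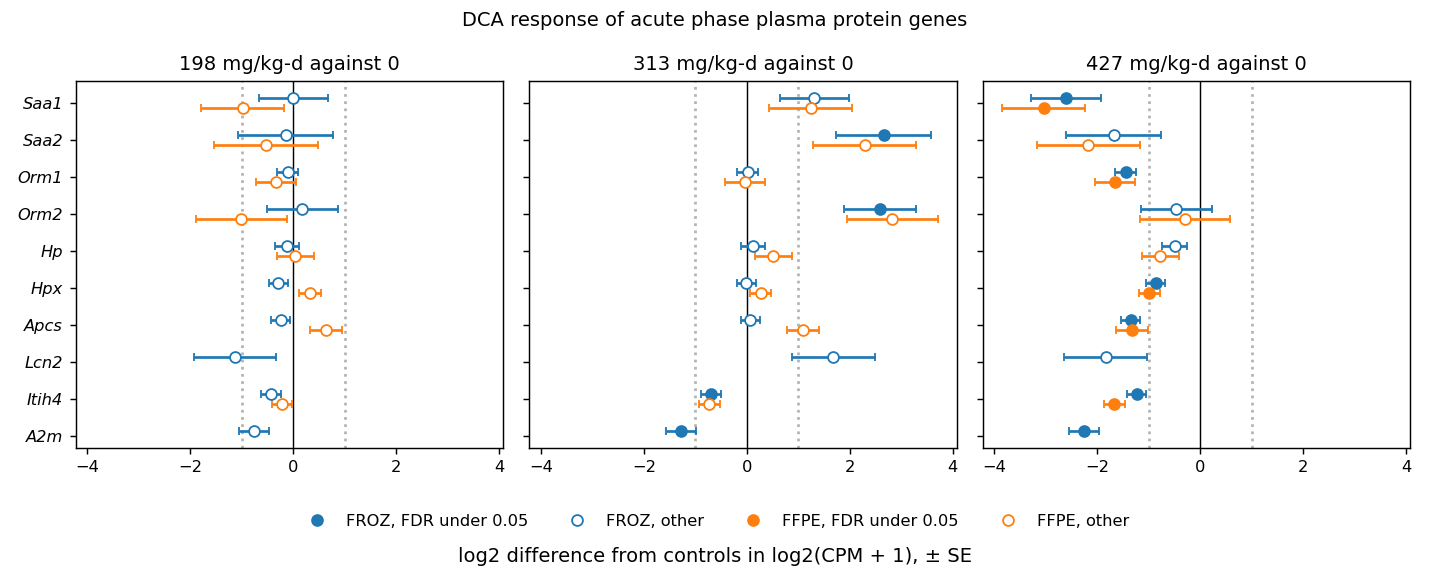
Log2 difference from the 6 controls in log2(CPM + 1) (x axis, ± SE) for each member (y axis) at 3 doses of DCA, in FROZ (blue) and FFPE (orange). Filled points passed FDR below 0.05 and dotted lines mark a 2-fold change. At 427 mg/kg-d every estimate lies below 0, and at 313 mg/kg-d those of Saa1, Saa2, Orm2 and Lcn2, and of Apcs in FFPE, lie above 1.

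Serum amyloid A proteins bind to high-density lipoprotein, and Saa1 and Saa2 are the forms the mouse liver induces most. The level of Saa1 in FROZ had a lowest, median and highest value of 9.06, 9.75 and 13.12 in controls, 9.05, 10.01 and 11.60 at 198, 10.13, 11.32 and 13.56 at 313, and 6.35, 7.41 and 9.97 at 427 mg/kg-d. The control at 13.12 was animal 8, and the other 5 controls reached 10.82 at most. Saa1 fell at 427 mg/kg-d by 2.61 on the log2 scale (SE 0.67, FDR 0.00401). Without animals 8, 74 and 75 the log2 difference was -2.05 (FDR 0.00441). Between 313 and 427 mg/kg-d Saa1 fell by 3.92 (SE 0.67, FDR 0.00113), where 3.07% of all genes differed by FDR, and by 3.04 without the 3 animals (FDR 0.00349). The difference of 1.31 at 313 mg/kg-d (SE 0.67, FDR 0.158) did not pass, but without animal 8 it was 1.87 with an FDR of 0.0286, and without all 3 animals 0.99 with an FDR of 0.261.

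Saa2 had a wider spread than Saa1 within each dose of FROZ. Its lowest, median and highest levels were 6.24, 7.21 and 12.77 in controls, 6.29, 7.92 and 9.44 at 198, 8.74, 10.41 and 13.33 at 313, and 5.00, 6.14 and 8.96 at 427 mg/kg-d. Of the 6 animals given 313 mg/kg-d, only animals 74 and 75 lay above every control. With animal 8 set aside, a choice made after its value was seen, all 6 lay above the other 5 controls, whose highest was 8.56. How many of all genes separate under such a choice was not counted. In FFPE the groups overlapped even so, as animal 73 held 6.63 and control animal 3 held 7.80. Saa2 rose at 313 mg/kg-d by 2.66 (SE 0.92, FDR 0.0327), and by 2.45 (FDR 0.0184) without animals 8, 74 and 75, which were picked for their high values. The call was lost when any of animals 4, 5, 6, 7, 74, 75 or 78 alone was left out, with log2 differences of 2.15 to 2.62 and FDR of 0.0502 to 0.0975. Against controls the log2 difference at 427 mg/kg-d was -1.68 (SE 0.92, FDR 0.176), or -0.75 without the 3 animals (FDR 0.417), and from 313 mg/kg-d it was -4.34 (SE 0.92, FDR 0.00872), or -3.20 without the 3 animals (FDR 0.0119). The rise from 198 to 313 mg/kg-d was 2.81 (SE 0.92, FDR 0.0461), where 11.7% of all genes differed by FDR, and it did not pass without the 3 animals (1.66, FDR 0.166) or without any 1 of animals 3, 6, 50, 52, 53, 54, 74, 75, 78, 98 and 100 (FDR of 0.0510 to 0.133).

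In FFPE the same animals were high. Saa1 reached 15.07 in animal 8 and 13.64 and 13.89 in animals 74 and 75, and Saa2 reached 12.77, 12.08 and 12.06. The medians of Saa1 were 9.96, 9.95, 11.52 and 7.22 from control to 427 mg/kg-d, and those of Saa2 were 6.35, 6.65, 9.15 and 4.72. Saa1 fell at 427 mg/kg-d by 3.04 (SE 0.80, FDR 0.0312), and by 2.16 without animals 8, 74 and 75, where it no longer passed (FDR 0.0522). Leaving out animal 3, 8, 97, 98, 99 or 102 alone also ended the call (log2 differences of -2.98 to -2.16, FDR 0.0648 to 0.114), as did a variance prior without a trend (FDR 0.163) and other zero offsets (0.0571 and 0.0916). From 313 to 427 mg/kg-d Saa1 fell by 4.28 (SE 0.80, FDR 0.00596) and Saa2 by 4.46 (SE 1.00, FDR 0.0310), where 0.375% of all genes differed by FDR. Without the 3 animals the differences were -3.34 (FDR 0.0132) for Saa1 and -3.19 (FDR 0.0862) for Saa2, and with a prior without a trend the FDR was 0.105 for Saa1 and 0.233 for Saa2. Saa2 also lost this call without animal 74, 75, 77, 97, 98, 99 or 102 alone (FDR 0.0511 to 0.131). Against controls, Saa2 in FFPE differed by 2.29 at 313 (SE 1.00, FDR 0.358) and by -2.17 at 427 mg/kg-d (SE 1.00, FDR 0.509), and without animals 8, 74 and 75 these were 2.12 (FDR 0.345) and -1.06 (FDR 0.920). Without animal 8 alone the difference at 313 mg/kg-d was 3.40 with an FDR of 0.0421.

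**Figure D2:**
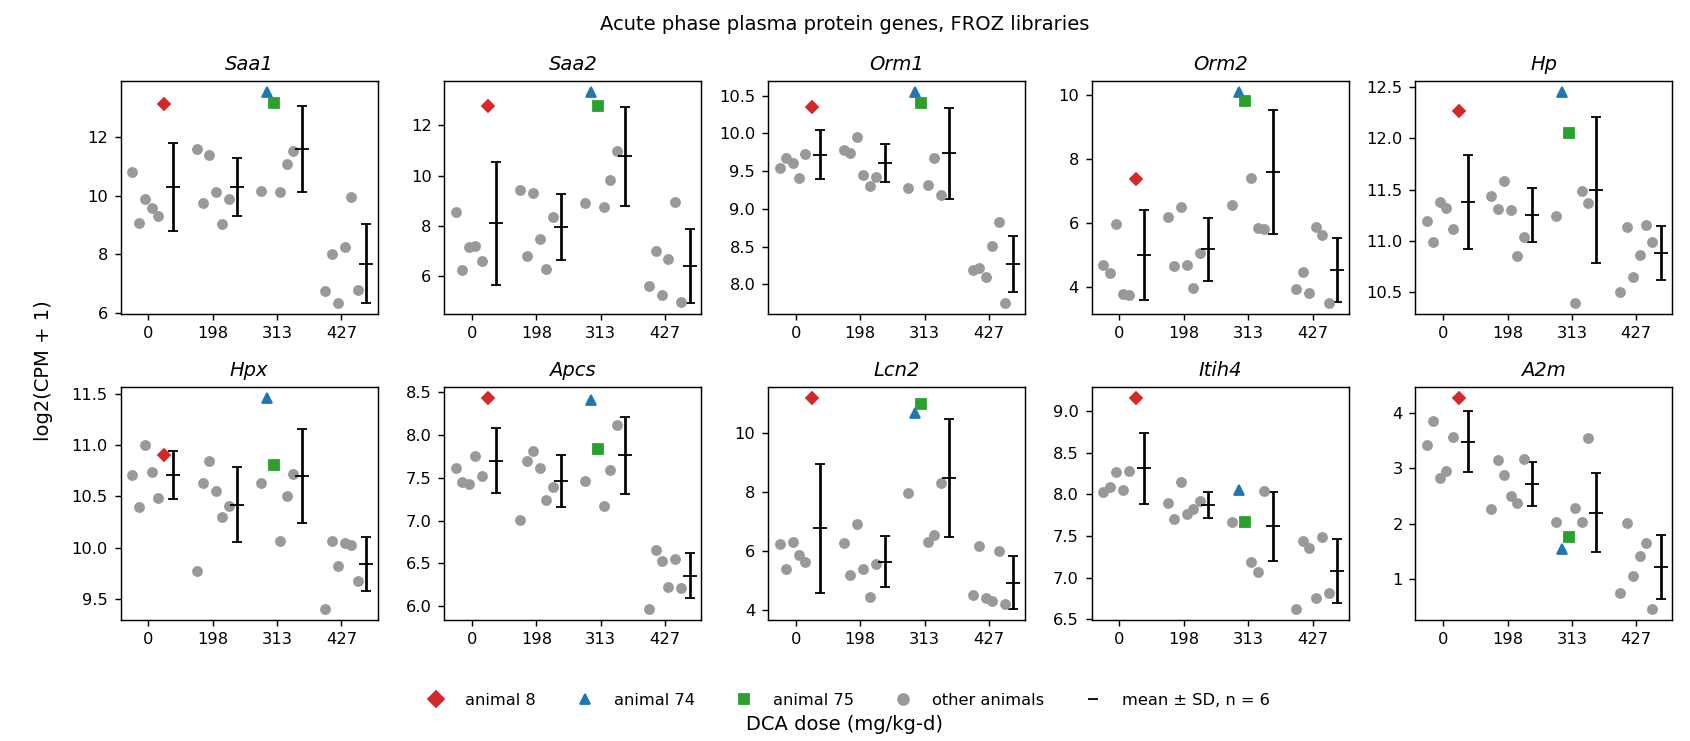
Level of each member in log2(CPM + 1) (y axis) in the 24 FROZ libraries by DCA dose (x axis, mg/kg-d), 1 point per animal, with bars for the mean ± SD of 6 animals. Animals 8, 74 and 75 are marked and lie at the top of their groups for Saa1, Saa2, Orm1, Orm2, Hp and Lcn2. At 427 mg/kg-d all 6 points of Orm1, Hpx, Apcs, Itih4 and A2m lie below all controls.

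Orosomucoids, or alpha-1-acid glycoproteins, carry basic drugs and steroids in plasma. Orm1 in FROZ had lowest, median and highest levels of 9.41, 9.64 and 10.35 in controls, 9.30, 9.59 and 9.96 at 198, 9.18, 9.49 and 10.55 at 313, and 7.75, 8.21 and 8.83 at 427 mg/kg-d. All 6 animals at 427 mg/kg-d lay below all 6 controls. Orm1 fell at this dose by 1.45 (SE 0.21, FDR 6.51e-06), which is 2.74-fold, and by 1.32 without animals 8, 74 and 75 (FDR 2.71e-07). Its differences at 198 and 313 mg/kg-d were -0.11 and 0.02 (SE 0.21, FDR 0.842 and 0.967). Without animals 8, 74 and 75 Orm1 differed at 313 mg/kg-d by -0.23 (FDR 0.364). Against 313 mg/kg-d it fell by 1.47 (SE 0.21, FDR 1.54e-04).

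In FROZ, Orm2 passed at 313 mg/kg-d and its neighbour Orm1 did not, and the difference between the genes was not tested. The FROZ levels of Orm2 were 3.77, 4.56 and 7.38 (lowest, median and highest) in controls, 3.97, 4.88 and 6.50 at 198, 5.82, 6.99 and 10.10 at 313, and 3.50, 4.21 and 5.88 at 427 mg/kg-d. Animals 74, 75 and 76, at 10.10, 9.81 and 7.42, lay above all controls. Orm2 rose at 313 mg/kg-d by 2.59 (SE 0.69, FDR 0.00667), and by 1.88 without animals 8, 74 and 75 (FDR 0.0170). It rose between 198 and 313 mg/kg-d by 2.41 (SE 0.69, FDR 0.0229), or 1.23 without the 3 animals (FDR 0.180), and lost that call without animal 53, 74 or 75 alone (1.91 to 2.17, FDR 0.0621 to 0.0789). From 313 to 427 mg/kg-d it fell by 3.05 (SE 0.69, FDR 0.0145), or by 1.87 without the 3 animals (FDR 0.0661), and at 427 mg/kg-d it differed from controls by -0.46 (SE 0.69, FDR 0.662). Without the 3 animals that difference changed sign, to 0.01 (FDR 0.990), and in FFPE it went from -0.30 (FDR 1.00) to 0.13 (FDR 0.998).

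In FFPE, Orm1 had medians of 8.73, 8.82, 8.73 and 7.23 from control to 427 mg/kg-d and fell at the last by 1.66 (SE 0.39, FDR 0.0113). Without animals 8, 74 and 75 the difference was -1.48 with an FDR of 0.0522, and without animal 102 it was -1.44 with an FDR of 0.0505, and with a prior without a trend the FDR was 0.0786. Its step from 313 to 427 mg/kg-d was -1.63 (SE 0.39, FDR 0.0516) and passed without animal 3, 8, 50, 51, 52, 53, 78 or 101 (-1.78 to -1.63, FDR 0.0134 to 0.0480). Orm2 had FFPE medians of 3.18, 2.97, 5.80 and 3.23, and animals 74, 75 and 76 again lay above all controls, at 9.07, 7.91 and 5.98. Orm2 rose from 198 to 313 mg/kg-d by 3.84 (SE 0.88, FDR 0.0202), where 1.06% of all genes differed by FDR. This call was lost without animals 8, 74 and 75 (2.76, FDR 0.202) and without animal 52, 74 or 75 alone (3.29 to 3.52, FDR 0.0531 to 0.0790). At 198 mg/kg-d animals 49 and 52 held 0.63 and 0.44 of Orm2 in FFPE, 1 read each, but 6.18 and 4.68 in FROZ. With weights for library quality the rise from 198 to 313 mg/kg-d in FFPE was 2.61 (FDR 0.384). The difference of Orm2 from controls at 313 mg/kg-d was 2.83 in FFPE (SE 0.88, FDR 0.131), and without animal 78 it was 3.33 with an FDR of 0.0430. Its step from 313 to 427 mg/kg-d was -3.13 (SE 0.88, FDR 0.146), or -3.63 with an FDR of 0.0465 without animal 78, and -2.05 with an FDR of 0.456 without animals 8, 74 and 75.

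Haptoglobin binds haemoglobin set free from red cells, and hemopexin binds the haem itself. Hp in FROZ moved little, with lowest, median and highest levels of 10.99, 11.26 and 12.27 in controls, 10.85, 11.31 and 11.58 at 198, 10.39, 11.43 and 12.46 at 313, and 10.50, 10.92 and 11.16 at 427 mg/kg-d. Its differences from controls were -0.12, 0.12 and -0.50 (SE 0.24, FDR 0.848, 0.755 and 0.122), and the groups overlapped at every dose. Against 313 mg/kg-d, Hp at 427 mg/kg-d differed by -0.62 (SE 0.24, FDR 0.164), and without animal 76 this was -0.84 with an FDR of 0.0295, but without animals 8, 74 and 75 it was -0.24 with an FDR of 0.607. In FFPE the differences of Hp from controls were 0.04, 0.51 and -0.78 (SE 0.36, FDR 0.975, 0.627 and 0.505), and the highest value, 14.03, was that of animal 74. From 313 to 427 mg/kg-d it was -1.29 (SE 0.36, FDR 0.145), and -1.60 with an FDR of 0.0154 without animal 76, but -0.68 with an FDR of 0.408 without animals 8, 74 and 75. Without those 3 animals the FROZ differences from controls were -0.08 at 313 (FDR 0.829) and -0.32 at 427 mg/kg-d (FDR 0.166). In FFPE the difference at 313 mg/kg-d was then 0.14 (FDR 0.926).

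Hpx in FROZ had lowest, median and highest levels of 10.40, 10.73 and 11.002 in controls, 9.78, 10.48 and 10.85 at 198, 10.06, 10.68 and 11.46 at 313, and 9.40, 9.92 and 10.07 at 427 mg/kg-d. All 6 animals at 427 mg/kg-d lay below all controls, although the fold change stayed under 2 with CPM scaling. With median-ratio scaling it passed 2, at log2 differences of -1.01 in FROZ (FDR 1.21e-04) and -1.09 in FFPE (FDR 8.17e-04). Hpx fell by 0.87 (SE 0.18, FDR 5.05e-04), which is 1.83-fold, and by 0.83 without animals 8, 74 and 75 (FDR 4.21e-04). Between 313 and 427 mg/kg-d it fell by 0.86 (SE 0.18, FDR 0.00838), or by 0.64 without the 3 animals (FDR 0.0646). In FFPE it fell by 0.99 at 427 mg/kg-d (SE 0.21, FDR 0.00339) and by 1.26 from 313 mg/kg-d (SE 0.21, FDR 0.00103, or 0.0774 with a prior without a trend). The 6 animals at 427 mg/kg-d, at 9.28 to 9.93, again lay below all controls, at 10.35 to 10.88. By FDR, Hpx passed at 427 mg/kg-d and Hp did not, and the difference between the genes was not tested.

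Serum amyloid P component, encoded by Apcs, is the pentraxin that serves as an acute phase reactant in mice. Apcs in FROZ held lowest, median and highest levels of 7.43, 7.57 and 8.44 in controls, 7.01, 7.50 and 7.82 at 198, 7.17, 7.72 and 8.41 at 313, and 5.96, 6.37 and 6.65 at 427 mg/kg-d. The 6 animals at 427 mg/kg-d lay below all 18 others. Apcs fell by 1.35 against controls (SE 0.18, FDR 2.82e-06), which is 2.54-fold, and by 1.41 against 313 mg/kg-d (SE 0.18, FDR 5.02e-05). Its differences at 198 and 313 mg/kg-d were -0.24 and 0.06 (SE 0.18, FDR 0.534 and 0.839). Without animals 8, 74 and 75 Apcs differed at 313 mg/kg-d by 0.03 (FDR 0.933). In FFPE its lowest, median and highest levels were 6.26, 7.13 and 7.62 in controls, 6.63, 7.82 and 8.83 at 198, 7.43, 8.06 and 8.75 at 313, and 5.38, 5.73 and 6.05 at 427 mg/kg-d, where all 6 animals again lay below the 18 others. It fell by 1.33 against controls (SE 0.31, FDR 0.0105) and by 2.42 against 313 mg/kg-d (SE 0.31, FDR 2.33e-05). At 313 mg/kg-d, 5 of 6 FFPE libraries lay above all controls, with a difference of 1.08 (SE 0.31, FDR 0.0904). This difference passed without animal 53 or animal 78 (1.08 and 1.22, FDR 0.0405 and 0.0367). Without animals 8, 74 and 75 it was 1.06 with an FDR of 0.268. The FROZ difference at this dose was 0.06.

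Lipocalin 2 takes up the siderophores with which bacteria gather iron. Lcn2 in FROZ had lowest, median and highest levels of 5.41, 6.05 and 11.18 in controls, 4.46, 5.48 and 6.91 at 198, 6.29, 8.12 and 10.96 at 313, and 4.20, 4.46 and 6.17 at 427 mg/kg-d. The control at 11.18 was animal 8, and the next control stood at 6.29. Against controls the differences were -1.13, 1.68 and -1.84 (SE 0.80, FDR 0.494, 0.126 and 0.0860). Without animals 8, 74 and 75 those at 198 and 427 mg/kg-d were -0.25 and -0.96 (FDR 0.823 and 0.0937). Without animal 8 the difference at 313 mg/kg-d was 2.56 with an FDR of 0.00436, and without all 3 animals it was 1.38 with an FDR of 0.0456. Lcn2 rose from 198 to 313 mg/kg-d by 2.81 (SE 0.80, FDR 0.0218; 1.63 without the 3 animals, FDR 0.0328). Leaving out animal 53, 74 or 75 alone ended this call (2.31 to 2.58, FDR 0.0576 to 0.0720). From 313 to 427 mg/kg-d it fell by 3.52 (SE 0.80, FDR 0.0145), and without the 3 animals the difference was -2.34 (FDR 0.00561).

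The inter-alpha-trypsin inhibitor heavy chains bind hyaluronan, and Itih4 is a plasma member of that family. Itih4 in FROZ had lowest, median and highest levels of 8.03, 8.17 and 9.16 in controls, 7.71, 7.86 and 8.15 at 198, 7.07, 7.67 and 8.05 at 313, and 6.62, 7.08 and 7.48 at 427 mg/kg-d. The medians declined with each dose, and all 6 animals at 427 mg/kg-d lay below all controls. Differences from controls were -0.44 (FDR 0.229), -0.70 (FDR 0.00694) and -1.23 (FDR 1.25e-05), each with an SE of 0.19. Neighbouring doses above 0 did not pass, at -0.26 from 198 to 313 (FDR 0.402) and -0.54 from 313 to 427 mg/kg-d (FDR 0.120). In FFPE the medians were 8.71, 8.56, 7.98 and 7.15, and all 6 libraries at 313 and at 427 mg/kg-d lay below all 6 controls, where 0.614 and 1.54% of all genes did so. Itih4 fell at 427 mg/kg-d by 1.67 (SE 0.20, FDR 8.41e-07), and at 313 mg/kg-d it differed by -0.73 (SE 0.20, FDR 0.0790). From 313 to 427 mg/kg-d it fell in FFPE by 0.94 (SE 0.20, FDR 0.0208), and this call was lost without animals 8, 74 and 75 (-0.96, FDR 0.0804), with a prior without a trend (FDR 0.169) and without animal 73, 75, 77, 97 or 102 alone (FDR 0.0511 to 0.0875).

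Alpha-2-macroglobulin traps proteases of every class. A2m, listed in FROZ alone, had lowest, median and highest levels of 2.83, 3.50 and 4.27 in controls, 2.27, 2.68 and 3.16 at 198, 1.53, 2.02 and 3.55 at 313, and 0.46, 1.24 and 2.01 at 427 mg/kg-d. All 6 animals at 427 and 5 of 6 at 313 mg/kg-d lay below all controls, with animal 78 as the exception. A2m fell at 427 mg/kg-d by 2.26 (SE 0.30, FDR 1.44e-06) and at 313 mg/kg-d by 1.28 (SE 0.30, FDR 0.00197). Without animals 8, 74 and 75 the difference at 313 mg/kg-d was -0.85 with an FDR of 0.0684. Animals 74 and 75 held 1.53 and 1.76, and animal 8 held 4.27. At 198 mg/kg-d it differed by -0.76 (SE 0.30, FDR 0.175). From 198 to 313 mg/kg-d the difference was -0.52 (SE 0.30, FDR 0.269; -0.79 and FDR 0.0478 without animal 78, -0.25 and FDR 0.709 without animals 8, 74 and 75) and from 313 to 427 mg/kg-d it was -0.97 (SE 0.30, FDR 0.0692; -1.13 and FDR 0.0382 without animal 98, -1.25 and FDR 0.0372 without animals 8, 74 and 75). In animals 74 and 75, which were high in Saa1, Saa2, Orm2 and Lcn2, A2m held the lowest values of the dose group.

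**Figure D3:**
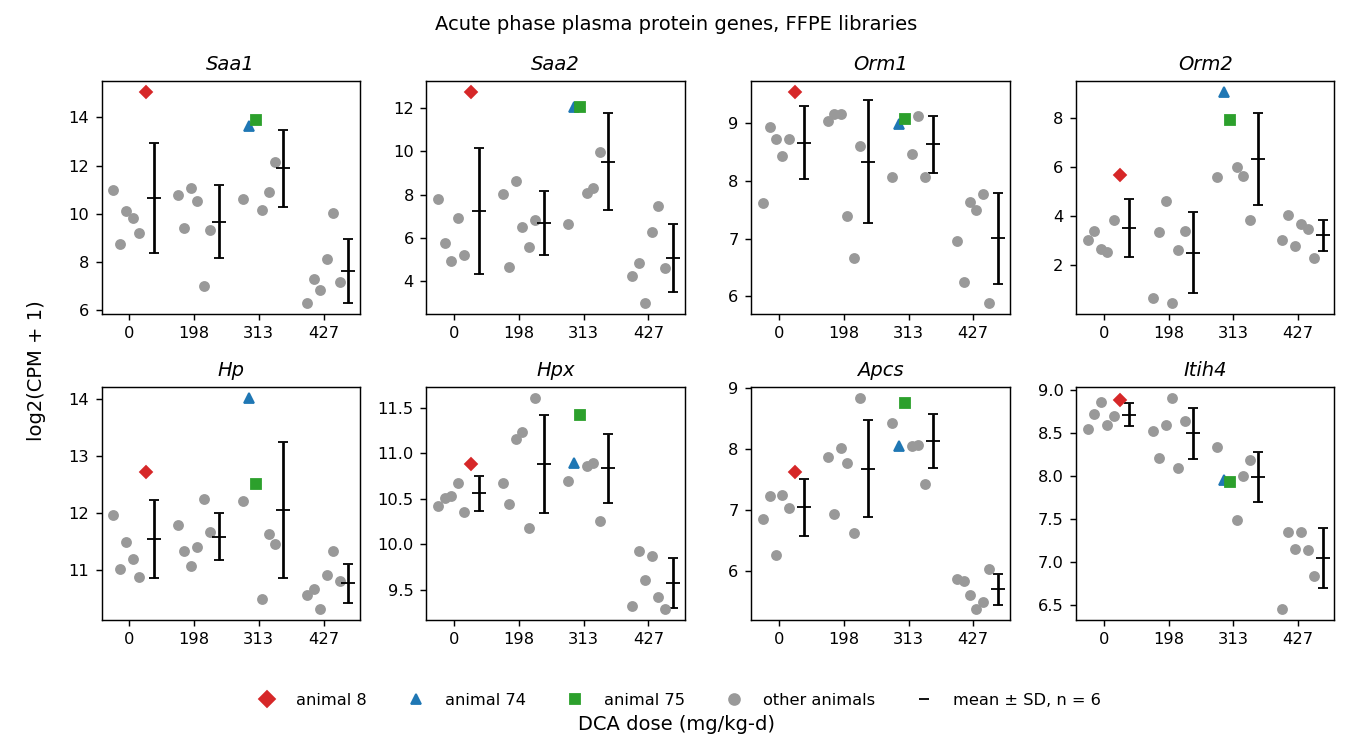
Level of the 8 members listed in FFPE, in log2(CPM + 1) (y axis), in the 24 FFPE libraries by DCA dose (x axis, mg/kg-d), 1 point per animal, with bars for the mean ± SD of 6 animals. All 6 points of Hpx, Apcs and Itih4 at 427 mg/kg-d lie below all controls, and animal 8 is the highest control of every member shown.

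A linear trend over the doses was tested for each member. In FROZ, 5 of 10 members had a falling slope by FDR (Orm1, Hpx, Apcs, Itih4 and A2m) and 0 a rising one, where 32.2% of all genes had a slope and 7.73% a falling one. Per 100 mg/kg-d, A2m fell by 0.51 (SE 0.07, FDR 1.47e-06), Itih4 by 0.28 (SE 0.04, FDR 1.13e-05) and Orm1 by 0.28 (SE 0.07, FDR 0.00312). Saa1, Saa2, Orm2, Hp and Lcn2 did not pass, with slopes between -0.40 and 0.11. Among the 5 that passed, the means of Itih4 and A2m were lower at each higher dose. Orm1, Hpx and Apcs differed from controls by -0.01 to 0.06 at 313 mg/kg-d and fell at 427 mg/kg-d. Without animals 8, 74 and 75 their differences at 313 mg/kg-d were -0.23, -0.19 and 0.03 (FDR 0.364, 0.527 and 0.933). Between 313 and 427 mg/kg-d, 7 of 10 members fell (Saa1, Saa2, Orm1, Orm2, Hpx, Apcs and Lcn2), where 1.34% of all genes fell, and between 198 and 313 mg/kg-d 3 rose (Saa2, Orm2 and Lcn2), where 8.05% rose. In FFPE these were 5 of 8 (Saa1, Saa2, Hpx, Apcs and Itih4) and 1 of 8 (Orm2), where 0.255% fell and 0.809% rose. In FFPE, 1 of 8 members, Itih4, had a slope (-0.37 per 100 mg/kg-d, SE 0.05, FDR 1.70e-05), where 2.17% of all genes had a slope and 0.659% a falling one. Counts without overlap can be set beside these. At 427 mg/kg-d 5 of 10 members in FROZ (those with a slope) and 3 of 8 in FFPE (Hpx, Apcs and Itih4) had all 6 animals below all controls, where 3.27 and 1.54% of all genes did, and 0 members lay above.

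The DCA response of the 8 members in both tables did not pass a test of difference between FFPE and FROZ. In limma on the FFPE minus FROZ difference within each animal, 0 of 8 members passed at each dose, where 0.0303, 0 and 0.0303% of the 6591 shared genes did. Unadjusted p was under 0.05 for 3 members at 198, 1 at 313 and 0 at 427 mg/kg-d. The largest differences were those of Orm2 at 198 mg/kg-d (-1.19, SE 0.66, FDR 0.501) and of Apcs at 313 mg/kg-d (1.02, SE 0.38, FDR 0.599). At 427 mg/kg-d the 8 differences lay between -0.49 (Saa2, SE 0.44) and 0.16 (Orm2, SE 0.66).

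Animals of a dose differed in the same way in their FROZ and FFPE libraries for the serum amyloid A genes. With values taken as deviations from their dose mean, Saa1 had a Pearson r of 0.940 and a Spearman rho of 0.929 over 24 animals, and Saa2 an r of 0.946 and a rho of 0.890. Each had a permutation p of 1e-05, the smallest that 100000 permutations within doses can give. Without the 2 animals farthest from the median in FROZ (8 and 101 for Saa1, 8 and 74 for Saa2) r was 0.911 and 0.904. For Orm1 r was 0.662 and rho 0.728 (permutation p = 1.2e-04 and 5e-05), with r of 0.715 without the 2 farthest animals. For Orm2 r was 0.658 and rho 0.609 (permutation p = 0.0029 and 0.0044), with r of 0.486 without animals 8 and 74. Hp had r of 0.755 and rho of 0.473 (permutation p = 0.0024 and 0.039), with r of 0.494 without animals 74 and 76. Itih4 had r of 0.478 and rho of 0.471 (permutation p = 0.019 and 0.033), with r of 0.528 without animals 8 and 77.

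Hpx and Apcs did not share that pattern, with r of 0.298 and 0.0750 and rho of 0.429 and 0.0548 (permutation p = 0.23 and 0.74 for r, 0.056 and 0.81 for rho). Without the 2 farthest animals their r was 0.303 and -0.0468. The 8 relations were tested without adjustment, and 6 of the 8 had an unadjusted p under 0.05 for r. Over the 6591 shared genes the median r was 0.0869, and 5% of genes had an r above 0.517. The same animal was highest in both libraries at 3 of 4 doses for Saa2, Orm2 and Hp, at 2 for Saa1 and Orm1, and at 1 for Hpx, Apcs and Itih4.

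**Figure D4:**
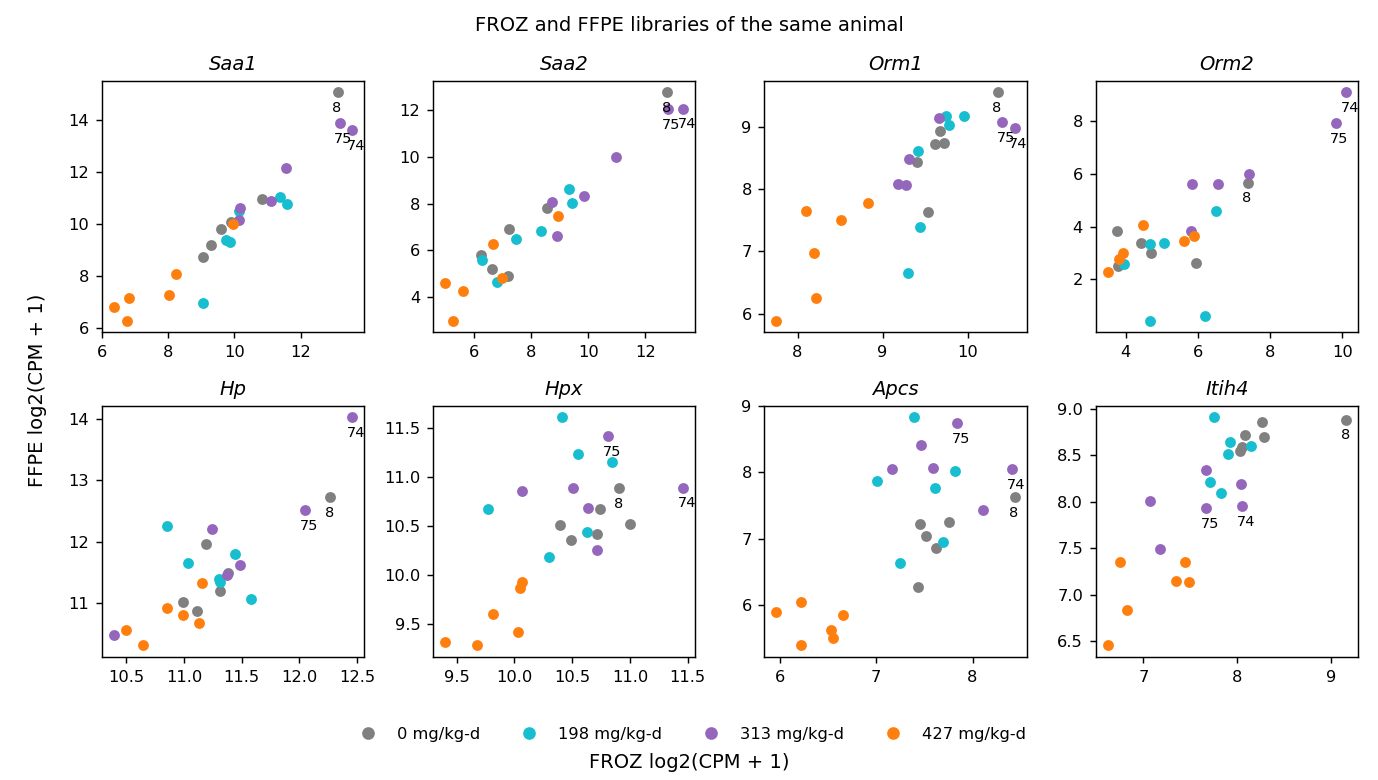
FFPE level (y axis) against FROZ level (x axis), both in log2(CPM + 1), of the 8 members in both tables, 1 point per animal, coloured by DCA dose, with animals 8, 74 and 75 numbered. Saa1 and Saa2 lie close to a line over all animals, whereas Apcs and Hpx show dose groups and little order within them.

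Within FROZ, members varied together across animals to unequal degrees. As a description, with dose means taken out of the 24 libraries, Saa1 and Saa2 had an r of 0.972, which stayed at 0.956 over the 21 libraries without animals 8, 74 and 75. Lcn2 followed Saa2 with an r of 0.915, or 0.771 without the 3 animals, and Orm1 followed Orm2 with 0.857, or 0.620. Hpx and Apcs had an r of 0.792, or 0.771 without the 3 animals. Orm2 and Hp dropped from 0.682 to 0.166, and Orm2 and Apcs from 0.414 to -0.148, when the 3 animals were left out. A2m had an r of at most 0.451 with any other member over the 24 libraries, that with Itih4, and of at most 0.613 without the 3 animals, that with Apcs. These r share the libraries and their scaling, and part of the r of Saa1 with Saa2 and of Orm1 with Orm2 can come from shared sequence, whose part was not tested.

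**Figure D5:**
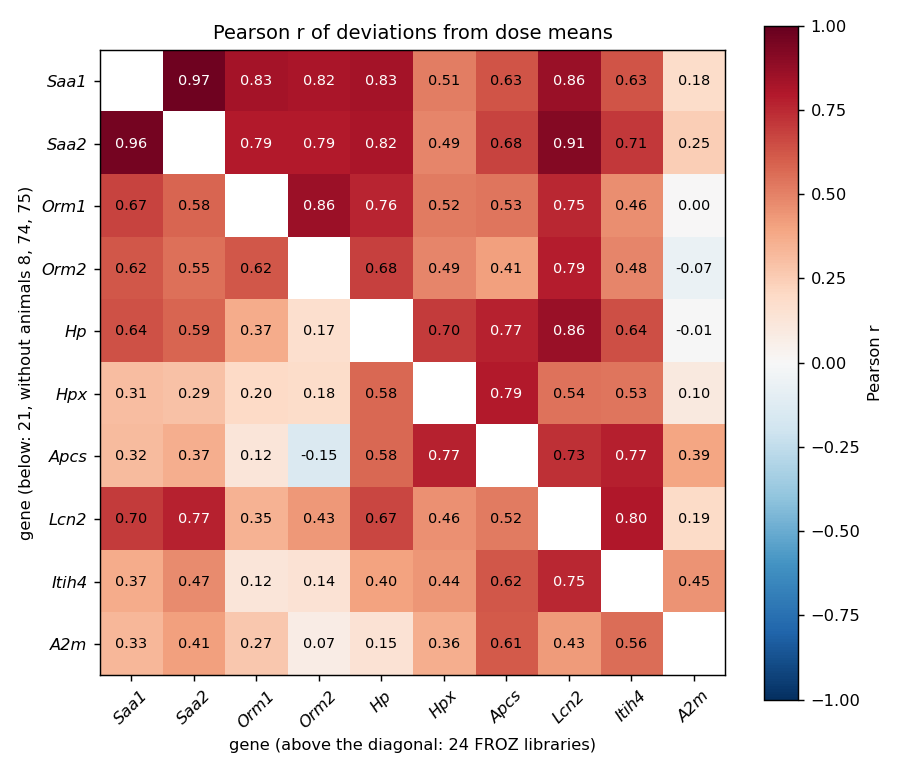
Pearson r between members (both axes) of deviations from dose means in FROZ, over 24 libraries above the diagonal and over the 21 without animals 8, 74 and 75 below it. Saa1 and Saa2 keep an r above 0.95 in both, and the r between other members are mostly lower below the diagonal, except those of A2m.

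Among the 5875 FROZ genes that averaged 10 CPM or more, the genes most like Saa1 by this measure were Saa2 (0.972), Lcn2 (0.861) and Clu (0.845), the secreted chaperone clusterin. For Saa2 they were Saa1, Lcn2 (0.915) and Saa3 (0.858), another serum amyloid A gene. Orm2 was followed by Saa3 (0.861), Orm1 (0.857) and Clu (0.832), and Hp by Ang (0.890), the ribonuclease angiogenin, by Lcn2 (0.861) and by Lbp (0.853), which binds bacterial lipopolysaccharide. Nearest to Apcs were Hpx (0.792), Fga (0.791), the fibrinogen alpha chain, and the protease inhibitor gene Serpina3n (0.784). Without animals 8, 74 and 75 these r were mostly lower. Clu stood at 0.733 with Saa1 and 0.530 with Orm2, Saa3 at 0.593 with Saa2 and 0.808 with Orm2, and Orm1 at 0.620 with Orm2. Lcn2 stood at 0.703 with Saa1, 0.771 with Saa2 and 0.666 with Hp, Ang at 0.778 and Lbp at 0.799 with Hp. With Apcs, the r of Hpx, Fga and Serpina3n were 0.771, 0.726 and 0.786.

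Other genes of the acute phase response also moved mostly downward. Of 23 other genes that rise in inflammation, 21 were listed in FROZ, and at 427 mg/kg-d 14 fell and 1 rose by FDR, where 30.1% of all genes passed and 7.33% were lower. Their median log2 difference was -0.76, against 0.10 over all genes. Complement genes led the list. C4b fell by 2.07 (SE 0.16, FDR 1.42e-10) from a mean of 6.23 ± 0.28 to 4.17 ± 0.43 (SD, n = 6 each), Cfb fell by 1.29 (SE 0.11, FDR 1.69e-09) and C3 fell by 1.05 (SE 0.15, FDR 3.22e-06). The gene that rose was Il1rn, the interleukin-1 receptor antagonist, by 1.77 (SE 0.33, FDR 1.56e-04). At 313 mg/kg-d 6 of the 21 fell and 1 rose, and at 198 mg/kg-d 3 fell, where 26.7 and 1.56% of all genes passed. In FFPE 15 of the 23 were listed, and 5 fell and 0 rose at 427 mg/kg-d, where 2.41% of all genes passed and 0.869% were lower.

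Genes that fall in inflammation also held more lower than higher calls. Of these 13, all listed in FROZ, 5 fell (Itih1, Itih2, F12, Fetub and Trf) and 1 rose (Apoa2) at 427 mg/kg-d. Their median was -0.31, at a dose where 30.1% of all genes passed and 7.33% were lower. Itih1, which like Itih4 encodes an inter-alpha-trypsin inhibitor heavy chain, fell by 1.74 (SE 0.16, FDR 3.36e-09), Itih2 fell by 0.86 (SE 0.11, FDR 6.67e-07), and F12, coagulation factor XII, fell by 0.71 (SE 0.08, FDR 1.37e-07). In FFPE, 12 were listed and 2 fell (Apoa1 and Trf) at 427 mg/kg-d, where 2.41% of all genes passed and 0.869% were lower.

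Of 22 receptor, signalling and transcription factor genes of the response, all listed in FROZ, 7 fell and 5 rose at 427 mg/kg-d, with a median of -0.08, where 30.1% of all genes passed and 7.33% were lower. Receptor genes held the lowest p. Lifr, the leukaemia inhibitory factor receptor, fell by 1.95 (SE 0.19, FDR 1.29e-08), Il1r1, the interleukin-1 receptor, fell by 1.69 (SE 0.17, FDR 2.37e-08) and its partner Il1rap fell by 1.33 (SE 0.14, FDR 2.80e-08). The log2 differences at 313 mg/kg-d were -1.59 for Lifr, -1.10 for Il1r1 and -1.41 for Il1rap (FDR 8.11e-07, 2.99e-05 and 3.72e-08). The others that fell at 427 mg/kg-d were Il6ra, Osmr, Stat3 and Cebpd, and those that rose were Tnfrsf1a, Creb3l3, Hnf4a, Nfkbia and Rela. In FFPE, 19 of the 22 were listed, and Il1r1 and Il1rap fell by 1.80 (SE 0.36, FDR 0.00185) and 1.38 (SE 0.37, FDR 0.0323) at 427 mg/kg-d, where 2.41% of all genes passed. Of 9 genes for uptake and storage of haem and iron, 7 were listed in FROZ, and against the same 30.1% of all genes 4 passed. Ftl1 (0.80, FDR 6.60e-06), Tfrc (1.16, FDR 6.53e-05) and Fth1 (0.49, FDR 3.82e-04), which encode ferritin chains and the transferrin receptor, rose while Lrp1, a receptor that takes up hemopexin with haem, fell by 0.43 (FDR 2.23e-05). In FFPE 5 were listed, and Ftl1 alone passed (0.82, FDR 0.0331).

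Neutrophils also make Lcn2 and haptoglobin, and macrophages take part in the acute phase response. Of 10 neutrophil markers, 2 were listed in FROZ (S100a8 and Retnlg) and 0 in FFPE. Their summed level ranged from 0.15 to 0.92 in controls, 0.47 to 1.21 at 198, 0.72 to 3.25 at 313 and 0.16 to 1.17 at 427 mg/kg-d, and both rose at 313 mg/kg-d, S100a8 by 0.88 (SE 0.25, FDR 0.0116) and Retnlg by 0.73 (SE 0.21, FDR 0.0102), at a dose where 26.7% of all genes passed. Both lie near the floor, with control means of 0.31 and 0.22, where 1 read is worth 0.10 to 0.15 CPM in FROZ. S100a8 stood at 0.74 in animal 8, 2.65 in animal 74 and 1.56 in animal 75. Retnlg stood at 2.09 and 1.40 in animals 74 and 75. The other animals at 313 mg/kg-d held 0.45 to 1.25 of S100a8 and 0.18 to 0.89 of Retnlg, and no fit of these markers left out animals 74 and 75. The part of S100a8 in the higher Saa2, Orm2 and Lcn2 at 313 mg/kg-d was not tested. The marker counts at 427 mg/kg-d stand against 30.1% of all genes in FROZ and 2.41% in FFPE. Of 9 Kupffer cell and macrophage markers, 7 were listed in FROZ, with summed levels of 6.49 to 7.03 in controls and 6.20 to 6.61 at 427 mg/kg-d, and 3 fell (Adgre1, Cd5l and Csf1r, with log2 differences of -0.50, -0.46 and -0.35). Hepatocyte markers held summed levels of 14.93 to 15.29 in controls and 14.78 to 15.01 at 427 mg/kg-d, where Apob fell by 0.53 and Hnf4a, also among the transcription factors above, rose by 0.45. In FFPE, where 9 of the 10 hepatocyte markers were listed, these were 15.31 to 15.74 in controls and 14.85 to 15.06 at 427 mg/kg-d. There 2 markers fell, Apoa1 and Serpina1a. Alb, Apoa1 and Ttr are also among the genes above that fall in inflammation, so the lists are not separate. Endothelial and stellate cell markers each had 1 gene that fell in FROZ at 427 mg/kg-d (Stab2 with a log2 difference of -0.66 and Dcn with -0.41). None of the 3 cholangiocyte or 4 lymphocyte markers listed in FROZ passed at this dose.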

How the data were processed

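Liver RNA of 24 mice was measured by TempO-Seq in 48 libraries, 1 FROZ and 1 FFPE per animal, with dose and preservation taken from the labels. The deposited values are log2(CPM + 1), computed by the authors. Reads were aligned by the authors to mm10 with STAR, and Partek Flow assigned them to RefSeq transcripts by expectation maximization. A zero offset of 0.0001 was used, genes whose geometric mean did not exceed 1 were dropped, and the rest were scaled to CPM. Scaling was done separately per table, so levels were not compared across preservations.

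DEGs were called with limma 3.58.1 (R 4.3.3) on the 24 libraries of a table, with the trend option of eBayes, dose as a factor, and FDR over all genes. Neighbouring doses came from the same fit, trends from a fit with dose as a number, and FFPE responses from the difference within an animal. Scripts were tested on simulated data. Low values were whole reads within 0.05 for 96.3 to 97.2% of them in FROZ and 81.1 to 94.6% in FFPE libraries, and 0.115 to 0.541% and 0.974 to 23.8% of listed genes were at 0. Reads carry no molecular identifiers, so depth covers counting error only. Libraries were paired by the animal number in the labels. Over 4815 genes that averaged 10 CPM or more in each table, and as deviations from dose means, the FROZ library was most like the FFPE library of its own animal for 21 of 24 animals (median r across genes 0.128). Mice are separate animals, 6 per dose.

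Members and lists were chosen with earlier results of these data known. Named are every member, the 3 genes of each list with the lowest p at 427 mg/kg-d in FROZ, the 3 genes most like Saa1, Saa2, Orm2, Hp and Apcs, and list members on which a sentence turns. Other genes of a list were named after their values were seen. Alternatives were the offset, scaling, filter, prior, weights, samples in the fit, each animal left out and no pairing. Positions came from GENCODE vM21, promoters from RefSeq on GRCm38.p6.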

Additional observations from a re-analysis of the deposited data

Results flagged for a closer look

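Of 72 groups of 6 libraries (1 member, table and dose each), 9 held a value whose gap to the nearest other value passed Dixon's limit for 6 samples, where chance gives about 1 in 20, or 3.6. In 8 of the 9 the value was that of animal 8, a vehicle control. In FROZ, animal 8 held 12.77 of Saa2, with the other 5 controls at 6.24 to 8.56, and 11.18 of Lcn2, with the others at 5.41 to 6.29. It held 10.35 of Orm1 (others 9.41 to 9.73), 12.27 of Hp (others 10.99 to 11.38), 8.44 of Apcs (others 7.43 to 7.76) and 9.16 of Itih4 (others 8.03 to 8.28). In FFPE, animal 8 held 15.07 of Saa1 (others 8.72 to 10.98) and 12.77 of Saa2 (others 4.91 to 7.80). The remaining value was A2m at 313 mg/kg-d in FROZ, where animal 78 held 3.55 and the others 1.53 to 2.28. All values are log2(CPM + 1).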

How the results depend on the processing

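No called difference of a member changed sign under any alternative. Of 696 differences recomputed with another offset, scaling, filter, prior, weights or set of libraries, 666 stayed on their side of the threshold, 17 lost and 13 gained a call. Counts of members moved by over 1.5 times as follows. At 313 mg/kg-d in FFPE the count went from 0 to 1 with only the 2 groups in the fit (Apcs). At 427 mg/kg-d in FFPE it went from 4 to 2 with a prior without trend and without animals 8, 74 and 75 (Saa1 and Orm1 lost in both). Between 198 and 313 mg/kg-d it went from 3 to 1 in FROZ without those animals, and from 1 to 0 in FFPE without them, with an offset of 0.0001 or with quality weights. Between 313 and 427 mg/kg-d in FFPE it went from 5 to 1 with a prior without trend (Saa1, Saa2, Hpx and Itih4 lost) and to 3 without those animals (Saa2 and Itih4 lost). The trend count in FFPE went from 1 to 5 with quality weights. The cause was not tested. Leaving out 1 animal gave 2 to 5 members called at 313 mg/kg-d and 5 to 5 at 427 mg/kg-d in FROZ, 0 to 2 and 2 to 5 in FFPE, 0 to 3 and 0 to 1 between 198 and 313 mg/kg-d, and 7 to 8 and 3 to 7 between 313 and 427 mg/kg-d. Without the pairing (no replicate block), 0 members differed in response between FFPE and FROZ at each dose, as with it. In FROZ, Saa2 at 313 mg/kg-d lost its call with median-ratio scaling (FDR 0.0535) and with only 2 groups (FDR 0.0593). FFPE depth limits low values most, as 1 read is worth 0.166 to 0.546 CPM across FFPE libraries. The values 0.63 and 0.44 of Orm2 in animals 49 and 52 are 0.546 and 0.355 CPM, which is 1 read in each of these libraries.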
